A study of Mus musculus with 24 samples.

Results

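The comparison described here is the effect of sildenafil on gene expression in mouse lung, averaged over wild-type and Marfan mice. It was computed for each gene as the mean of 2 differences, sildenafil minus vehicle in Marfan lungs and sildenafil minus vehicle in wild-type lungs, on 19 of the 24 arrays of the series. The groups, taken from the sample titles, were 6 arrays of wild-type mice given vehicle, 4 of wild-type mice given sildenafil, 5 of Marfan mice given vehicle and 4 of Marfan mice given sildenafil. All mice were killed at 6 months of age, and dosing, through drinking water, began when they were 6 weeks old. Marfan sildenafil array 9, which stands apart from the rest, was left out by rule, and the other 4 arrays carry no values because they failed quality control. The labels give neither the Marfan allele, the strain, the sex nor the dose, and the treatment text is the same on all samples. They plan 6 mice per group but do not state that each array is a separate animal, so the p-values speak only to the spread among these arrays. The contrast covered 19494 genes, each read by 1 transcript probe set (the one with the highest mean) of the 22142 on the array, as quantile-normalized log2 levels. All differences below are in log2 units of that scale, given ± SE from limma, and p-values called adjusted are Benjamini-Hochberg values over the 19494 genes with a threshold of 0.05.

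Sildenafil blocks phosphodiesterase 5, the enzyme that breaks down cyclic GMP in smooth muscle and other vascular cells. Cyclic GMP is made when nitric oxide or natriuretic peptides activate guanylate cyclases, and it acts largely through protein kinase G, which relaxes vessels. The lung is rich in phosphodiesterase 5, and sildenafil is used to widen its arteries in pulmonary hypertension. Marfan syndrome is caused by mutations of fibrillin-1, a protein of the microfibrils that scaffold elastic fibres and hold latent TGF-beta in the matrix, and Marfan mice develop widened airspaces. The fibrillin-1 gene is not analysed here.

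The arrays differed in brightness before normalization. The median deposited level per array was 5.66 ± 0.19 (SD, n = 6) in wild-type vehicle, 6.06 ± 0.14 (n = 4) in wild-type sildenafil, 6.03 ± 0.13 (n = 5) in Marfan vehicle and 6.15 ± 0.24 (n = 4) in Marfan sildenafil lungs. The wild-type sildenafil arrays (5.87 to 6.19) were all brighter than the wild-type vehicle arrays (5.32 to 5.83), whereas in Marfan lungs the ranges overlapped (5.92 to 6.45 against 5.80 to 6.14). The array numbers in the titles run from the sildenafil to the vehicle groups, so any effect of that order cannot be told apart from treatment. Y-linked genes were low on 2 of 6, 1 of 4, 2 of 5 and 1 of 4 arrays in the same order. Markers of lung cells had high mean levels, 12.0 for alveolar type 2 cells (5 genes), 12.5 for club cells (3 genes) and 10.6 for endothelium (4 genes), while thymus (2 genes) stood at 4.15 and adipose tissue (3 genes) at 4.74. In whole lung, fewer cells of a type and less RNA per cell cannot be told apart.

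Averaged over both genotypes, 74 genes changed at an adjusted p under 0.05, 0.38% of those tested. Of these, 46 (0.236% of genes) were higher under sildenafil, by 0.28 to 0.84 with a median of 0.48, and 28 (0.144%) were lower, by a median of -0.36 and up to -0.76. At an unadjusted p under 0.05 stood 2548 genes (13.1%), 1296 higher (6.65%) and 1252 lower (6.42%). The genes with the smallest p among those that rose were Wasf2, Tubb4a, Abi3bp, Frrs1, Chrdl1 and Glp1r, and among those that fell H4c8, Siva1, Tmem258, Lsm3 and Nop10. By the gene lists described below, 3 of the 28 lower genes encode cytosolic ribosomal proteins, 3 subunits of respiratory complexes II to IV, 2 proteasome subunits and 1 an LSm protein. The order in which single genes are described next was chosen after their values were seen. The count depended on single arrays: it was 0 without wild-type sildenafil array 4 or 6 or Marfan sildenafil array 8, 11 or 12, and 9 without wild-type sildenafil array 1. Without wild-type vehicle array 15, 16 or 18 it was 8, 29 and 27, and without Marfan vehicle array 21 or 23 it was 16 and 9. It rose to 233 without Marfan sildenafil array 10, 204 without wild-type vehicle array 14, and 153 and 169 without Marfan vehicle arrays 22 and 24. In each of these fits all 74 genes kept their direction and an unadjusted p under 0.05. By limma the count was also 0 with array 9 included (lowest adjusted p = 0.093) and without a variance trend (0.115). With array brightness as a covariate it was 0 as well (0.253). The split depended on scaling, since 37.8% of the 74 genes were lower, against 1 of 793 genes on the deposited values and 0 of 3 after centring each array on its median. At an unadjusted p under 0.05 the share of lower genes was 49.1%, against 0.678% and 76.9% under those scalings, and the median gene stood at 0.188 on the deposited values.

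The gene with the smallest p was Wasf2, whose product WAVE2 starts branched actin networks. Its level was 9.92 to 10.15 (median 9.98) on the 6 wild-type vehicle arrays and 10.31, 10.40, 10.45 and 10.48 on the wild-type sildenafil arrays. In Marfan lungs it was 10.07, 10.17, 10.17, 10.23 and 10.36 under vehicle and 10.29, 10.47, 10.54 and 10.61 under sildenafil. The wild-type groups did not overlap, and in Marfan lungs 1 sildenafil array lay below the highest vehicle array. The averaged difference was 0.34 ± 0.06, a 1.27-fold change (adjusted p = 0.0236). Other genes of the cytoskeleton rose as well. Cald1, the actin-binding caldesmon of smooth muscle, stood at 7.30 to 7.96 (median 7.78) on the wild-type vehicle arrays and at 8.00, 8.15, 8.16 and 8.26 on the sildenafil arrays. In Marfan lungs its values were 7.52, 7.63, 7.88, 7.93 and 7.93 under vehicle and 8.17, 8.17, 8.31 and 8.77 under sildenafil. Every sildenafil array was thus above every vehicle array of its genotype, with a difference of 0.50 ± 0.10 (adjusted p = 0.0307). Tubb4a, a beta-tubulin, had the largest rise of the 46 genes, 0.84 ± 0.15 or 1.79-fold, with 6.76 to 7.60 against 7.76 to 8.46 in wild-type and 6.91 to 7.92 against 7.68 to 8.35 in Marfan lungs.

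Pdgfrb, the platelet-derived growth factor receptor of pericytes and fibroblasts, was 0.50 ± 0.10 higher (adjusted p = 0.0307). Its level was 7.70 to 8.17 (median 7.90) on the wild-type vehicle arrays and 8.39, 8.41, 8.62 and 8.66 on the sildenafil arrays. In Marfan lungs it was 7.72, 8.11, 8.17, 8.31 and 8.64 under vehicle and 8.40, 8.60, 8.66 and 8.74 under sildenafil. The wild-type groups were apart and the Marfan groups overlapped through vehicle array 20, at 8.64. Among the 17 measured pericyte and fibroblast genes Pdgfrb was the 1 that passed. At an unadjusted p under 0.05, 5 stood higher (29.4%, against 6.65% of all genes) and none lower. Of the 17, 14 lay above 0 with a median of 0.09 (0.04 without wild-type sildenafil array 4 or 5). Vim, the intermediate filament of mesenchymal cells, stood just outside the threshold at 0.23 ± 0.05 (adjusted p = 0.0505).

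Some of the genes that rose encode secreted or matrix proteins. Abi3bp, a matrix protein that binds cells and collagen, was 8.79 to 9.15 (median 8.95) in wild-type vehicle lungs and 9.21, 9.22, 9.29 and 9.48 in wild-type sildenafil lungs. In Marfan lungs its level was 8.67, 8.73, 8.89, 9.13 and 9.17 under vehicle and 9.18, 9.46, 9.57 and 9.71 under sildenafil. No sildenafil array overlapped a vehicle array of its genotype, and the difference was 0.45 ± 0.08 (adjusted p = 0.0236). Chrdl1, a secreted antagonist of bone morphogenetic proteins, rose by 0.66 ± 0.12, and Scube2, which helps to release Hedgehog ligands, by 0.68 ± 0.14 (adjusted p = 0.0236 and 0.0342). Sod3, the extracellular superoxide dismutase of vessel walls, rose by 0.51 ± 0.11 (adjusted p = 0.0342). Its wild-type vehicle arrays ran from 9.96 to 10.90 and its sildenafil arrays from 10.91 to 11.31, the Marfan arrays from 10.51 to 11.17 and from 11.01 to 11.44. Timp2, an inhibitor of matrix metalloproteinases, rose by 0.32 ± 0.07 (adjusted p = 0.0474), and C7, a late component of complement, by 0.41 ± 0.09 (adjusted p = 0.0447).

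Among receptors and signalling genes, Glp1r, the receptor of the gut hormone GLP-1, was 0.55 ± 0.10 higher under sildenafil (adjusted p = 0.0236). Its wild-type vehicle arrays stood at 10.29 to 11.17 (median 10.93) and the sildenafil arrays at 11.30, 11.46, 11.48 and 11.62. The Marfan arrays stood at 10.80, 10.84, 10.95, 11.08 and 11.51 under vehicle and at 11.23, 11.49, 11.54 and 11.68 under sildenafil, so that only array 24 of the vehicle group reached the treated range. Components of the planar cell polarity pathway were among the risers, with Prickle1 at 0.42 ± 0.08, the dim Vangl2 at 0.69 ± 0.15 and the Dishevelled gene Dvl3 at 0.40 ± 0.09 (adjusted p = 0.0307, 0.0342 and 0.0363). This set was put together after the values were seen. Here and below, dim genes are those in the dimmer 50% of all genes by mean level, which 6 of the 74 genes were. Dll4, the Notch ligand of endothelial cells, rose by 0.39 ± 0.08 and Ahr, the aryl hydrocarbon receptor, by 0.36 ± 0.08 (adjusted p = 0.0342 for both). Ehd2 and Ehd4, which shape caveolae and endosomes, rose by 0.52 ± 0.11 and 0.29 ± 0.06, and Tnfsf10, the death ligand TRAIL, by 0.41 ± 0.09. Other risers were the transcription factor gene Creb3l2 (0.48 ± 0.09), Man1c1, a mannosidase of the Golgi (0.45 ± 0.09), the ferric reductase gene Frrs1 (0.56 ± 0.10), Ttyh3 (0.64 ± 0.13) and the tetraspanin gene Tspan18 (0.65 ± 0.13). Mapk10, which encodes the kinase JNK3, rose by 0.62 ± 0.12 on average.

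**Figure D1:**
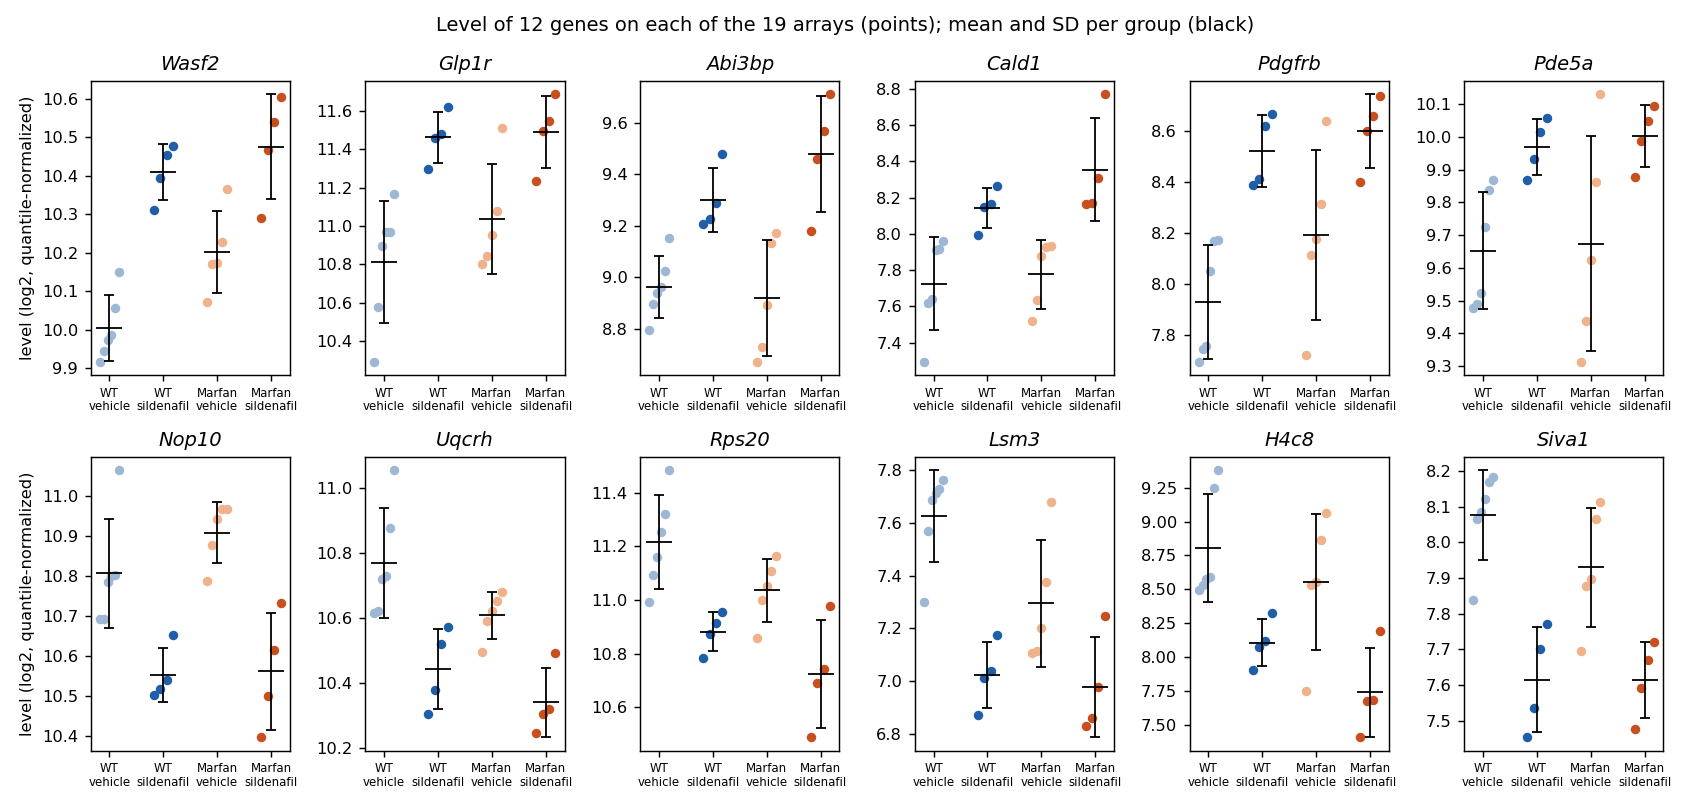
Level of 12 genes (log2, quantile-normalized, 1 panel per gene, each with its own vertical axis) on each of the 19 arrays, with the mean and SD of each group in black. The top row shows genes with higher values under sildenafil and the bottom row genes with lower values, and the vehicle and sildenafil points of a genotype are apart in both genotypes for Abi3bp, Cald1, Nop10 and Uqcrh.

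On the lower side, several genes encode parts of small RNA-protein particles. Nop10, a protein of the particles that modify ribosomal RNA, was 10.69 to 11.06 (median 10.79) on the wild-type vehicle arrays and 10.50, 10.52, 10.54 and 10.65 on the sildenafil arrays. The Marfan arrays stood at 10.79, 10.88, 10.94, 10.97 and 10.97 under vehicle and at 10.40, 10.50, 10.62 and 10.73 under sildenafil. The groups were apart in both genotypes and the difference was -0.30 ± 0.06 (adjusted p = 0.0307). Lsm3, of the ring that binds U6 small nuclear RNA, fell by 0.46 ± 0.09, Srp14, of the signal recognition particle, by 0.36 ± 0.08, and Rmrp, the RNA of the RNase MRP enzyme, by 0.25 ± 0.05 (adjusted p = 0.0307, 0.0342 and 0.0342). Lsm3 ran from 7.30 to 7.76 against 6.87 to 7.17 in wild-type lungs and from 7.11 to 7.68 against 6.83 to 7.25 in Marfan lungs.

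Genes of the ribosome and of mitochondria were also among those that fell. Rps20, a small-subunit ribosomal protein gene, was 10.99 to 11.48 (median 11.21) in wild-type vehicle and 10.78, 10.87, 10.91 and 10.96 in wild-type sildenafil lungs. The Marfan arrays gave 10.86, 11.00, 11.05, 11.11 and 11.16 under vehicle and 10.49, 10.69, 10.74 and 10.98 under sildenafil, with an overlap of 1 treated array with the lowest vehicle array. Its difference was -0.32 ± 0.07, as was that of Rpl37, and Rpsa stood at -0.40 ± 0.09 (adjusted p = 0.0342, 0.0359 and 0.0469). Uqcrh, the hinge subunit of respiratory complex III, was 10.62 to 11.06 (median 10.73) and 10.30, 10.38, 10.52 and 10.57 in wild-type vehicle and sildenafil lungs. In Marfan lungs it was 10.50, 10.59, 10.62, 10.65 and 10.68 under vehicle and 10.24, 10.30, 10.32 and 10.49 under sildenafil. These groups were apart in both genotypes, though nearly touching in Marfan lungs (10.494 against 10.496), with a difference of -0.30 ± 0.06 (adjusted p = 0.0342). Uqcrq, of the same complex, fell by 0.42 ± 0.09, Cox4i1, of complex IV, by 0.36 ± 0.08, and Pam16, of the motor that pulls proteins into mitochondria, by 0.30 ± 0.06 (adjusted p = 0.0342, 0.0486 and 0.0342).

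The largest fall of the 28 genes was that of H4c8, a histone H4 gene, at -0.76 ± 0.14 or 0.592-fold (adjusted p = 0.0307), with 8.49 to 9.38 against 7.90 to 8.32 in wild-type and 7.75 to 9.07 against 7.41 to 8.19 in Marfan lungs. Histone H4 genes encode near-identical proteins, and ribosomal protein genes have many pseudogene copies, so these probe sets may also read related sequences. Siva1, which promotes cell death, fell by 0.39 ± 0.07, Rpa3, of the single-strand DNA-binding complex of replication, by 0.40 ± 0.08, and Tmem258, of the enzyme that attaches N-glycans, by 0.42 ± 0.08 (adjusted p = 0.0307 each). S100a13, a calcium-binding protein gene, fell by 0.44 ± 0.09 and Iqcc by 0.37 ± 0.08 (adjusted p = 0.0307 for both). Supt4a, of the factor that controls RNA polymerase II elongation, fell by 0.35 ± 0.07 (adjusted p = 0.0342), and Cnih1, a cargo receptor of the secretory pathway, by 0.27 ± 0.06 (adjusted p = 0.0391). Psmd13 and Psmb1, of the proteasome, stood at -0.31 ± 0.07 and -0.29 ± 0.07 (adjusted p = 0.0373 and 0.0447). Over all 19494 genes, every treated array lay above every vehicle array of its genotype, in both genotypes, for 2 genes (0.0103%), Abi3bp and Cald1, and below for 11 genes (0.0564%), among them Nop10, Iqcc, Uqcrh, Supt4a and Cnih1.

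The average stands for both genotypes only as far as they moved alike. The arrays of vehicle and sildenafil lungs did not overlap for 45 of the 74 genes in wild-type lungs (2.73% of all genes did so) and for 18 in Marfan lungs (2.01% of all genes), counts that come from the arrays that chose the genes. All 74 genes had the same sign in both genotypes and 70 had an unadjusted p under 0.05 in each. Both counts are largely fixed by the selection of these genes on the average. The 46 higher genes had medians of 0.50 in wild-type and 0.42 in Marfan lungs, and the 28 lower genes -0.37 and -0.33. Tested alone by limma, the wild-type effect gave 0 genes past the adjusted threshold (lowest adjusted p = 0.115), and 2175 genes (11.2%) had an unadjusted p under 0.05. The Marfan effect gave 0 (lowest adjusted p = 0.256) and 1339 (6.87%), and the difference between the genotypes' effects 0 (lowest adjusted p = 0.995) and 848 (4.35%). Its median SE was 0.237, against 0.119 for the average, so differences between the genotypes were measured less precisely than the average. Mapk10 was the only one of the 74 genes with an unadjusted p under 0.05 for that difference, at 0.34 in wild-type and 0.90 in Marfan lungs.

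No array is shared between the genotypes, so a ranking made in one can be read in the other. Of the 100 genes ranked highest in wild-type lungs by p, 93 were also above 0 in Marfan lungs, 35 of them with an unadjusted p under 0.05, and their median went from 0.51 to 0.25. Of the 100 ranked lowest, 88 were below 0 in Marfan lungs (27 with p under 0.05), with medians of -0.42 and -0.18. In the reverse direction 67 of the 100 highest and 77 of the 100 lowest genes in Marfan lungs kept their sign in wild-type lungs, where 33 and 31 had a p under 0.05. Over all genes 49.6% to 50.4% had the sign in question. Across genes, which are not independent, the wild-type and Marfan differences correlated with r = 0.205 (19494 genes) and r = 0.422 in the brighter 50% (9747 genes), a description in which both genotypes share the normalization.

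**Figure D2:**
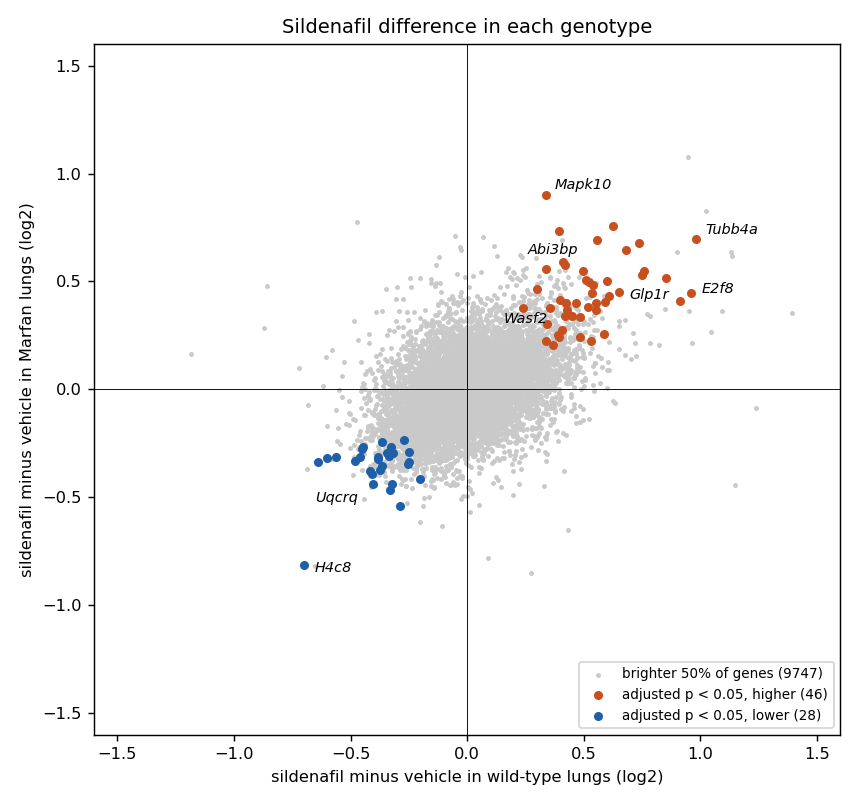
Sildenafil minus vehicle (log2) in wild-type lungs (horizontal) against Marfan lungs (vertical) for the brighter 50% of genes (9747, grey), with the 46 genes higher (orange) and 28 lower (blue) at an adjusted p under 0.05 for the average. All 74 genes lie in the upper right or lower left corner, and Mapk10 stands highest of the 46 in Marfan lungs, with 0.34 in wild-type and 0.90 in Marfan lungs.

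Pde5a, the gene of phosphodiesterase 5 itself, had higher mean levels in treated lungs of both genotypes but missed the threshold. It stood at 9.48 to 9.87 (median 9.62) on the wild-type vehicle arrays and at 9.87, 9.93, 10.01 and 10.06 on the sildenafil arrays. In Marfan lungs it stood at 9.31, 9.44, 9.62, 9.86 and 10.13 under vehicle and at 9.88, 9.99, 10.05 and 10.10 under sildenafil. Untreated lungs spread widely, and Marfan vehicle array 20 had the highest value of all 19 arrays. The difference was 0.32 ± 0.09 (0.32 in wild-type and 0.33 in Marfan lungs, adjusted p = 0.0801 by limma), and an exact two-sided permutation test of this single gene within each genotype gave p = 0.00457 over 26460 relabellings, whose smallest possible p is 3.78e-05. Pde5a passed on the deposited values (0.51, adjusted p = 0.0266), where the median gene stood at 0.188. It also passed with array weights (0.31, adjusted p = 0.0498) and without Marfan vehicle array 20 (0.38, adjusted p = 0.0352). In every other limma fit it missed the threshold. It stood at 0.19 with array 9 included (adjusted p = 0.642) and at 0.25 after median centring (adjusted p = 0.247). With array brightness as a covariate it stood at 0.32 (adjusted p = 0.877).

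Of the other genes of the pathway none passed. Among 16 phosphodiesterases that degrade cyclic GMP the median was -0.01. Pde5a and Pde3a (0.14 ± 0.06) had an unadjusted p under 0.05 with a higher level and Pde3b (-0.22 ± 0.10) with a lower one. Among 22 genes that make, sense or carry out cyclic GMP signals, 3 stood higher at an unadjusted p under 0.05. These were Ddah1, which removes an inhibitor of nitric oxide synthases (0.32 ± 0.10), the natriuretic peptide receptor gene Npr2 (0.16 ± 0.07) and the dim Nos2 (0.37 ± 0.18), and the dim arginase gene Arg2 stood at -0.25 ± 0.12. That higher count was 1 without wild-type sildenafil array 1, Marfan sildenafil array 8 or 11 or Marfan vehicle array 21. Of 16 genes of the endothelin, prostacyclin and angiotensin systems, other regulators of lung vessel tone, 7 (43.8%, against 6.65% of all genes) stood higher at an unadjusted p under 0.05 and none lower. They were the receptor genes Ednrb (0.34 ± 0.10) and the dim Ptgir (0.53 ± 0.16), the converting enzyme genes Ace (0.26 ± 0.08) and Ece1 (0.24 ± 0.09), Ptgs2 (0.37 ± 0.11), Edn1 (0.31 ± 0.12) and Edn3 (0.25 ± 0.09). The list's median was 0.07 (0.12 without wild-type sildenafil array 1), against 0 to the second decimal for all genes. Its higher count was 2 with array 9 included and 3 with array brightness as a covariate. In these settings 1006 and 539 of all 19494 genes stood higher at that p.

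Genes of basic cell machinery lay lower as whole lists. Of 35 measured subunits of respiratory complex I, 34 lay below 0 with a median of -0.22, and 22 (62.9%) had an unadjusted p under 0.05, against 6.42% of all genes. Of 38 genes of complexes II to IV and ATP synthase, 34 lay below 0 (median -0.15) and 21 had an unadjusted p under 0.05, with Uqcrh, Uqcrq and Cox4i1 past the adjusted threshold. Complex I had no member past it, the nearest being Ndufa2 at -0.37 ± 0.09 (adjusted p = 0.064), with 8.65 to 9.47 against 8.17 to 8.60 in wild-type and 8.58 to 8.95 against 8.24 to 8.71 in Marfan lungs. All 48 cytosolic ribosomal protein genes lay below 0 (median -0.20), 36 of them with an unadjusted p under 0.05 and Rps20, Rpl37 and Rpsa past the adjusted threshold. Of 72 mitochondrial ribosomal protein genes 69 lay below 0 (median -0.18) and 31 had an unadjusted p under 0.05, among them Mrpl48 (-0.28 ± 0.07) and Mrpl23 (-0.33 ± 0.08). Proteasome subunits, 33 in all, had a median of -0.12 with 14 at an unadjusted p under 0.05, and the 23 Sm, LSm and related splicing proteins a median of -0.19 with 11. None of these 6 lists had a member with a higher level at an unadjusted p under 0.05.

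The medians of these lists in wild-type and Marfan lungs were -0.25 and -0.17 for complex I, and all 6 were below 0 in each genotype. Leaving out single arrays moved the complex I median between -0.25 and -0.19 and that of cytosolic ribosomal proteins between -0.23 and -0.18. Their sign depended on scaling. On the deposited values, where the median gene stood at 0.188, complex I stood at -0.004, complexes II to IV and ATP synthase at 0.04, cytosolic ribosomal proteins at -0.08, mitochondrial ribosomal proteins at 0.07, proteasome subunits at 0.09 and splicing proteins at 0.04. None of the 6 lists had a member below 0 at an unadjusted p under 0.05 there, and complex I, complexes II to IV with ATP synthase, mitochondrial ribosomal proteins and the proteasome had 1, 2, 2 and 3 above 0. Relative to the median gene of that scale these are -0.19, -0.15, -0.27, -0.12, -0.10 and -0.14. With array brightness as a covariate the medians were -0.17 for complex I (33 of 35 below 0, 7 at an unadjusted p under 0.05) and -0.13 for cytosolic ribosomal proteins (47 of 48 below 0, 7 at an unadjusted p under 0.05). Over all 19494 genes, 37 stood lower and 5420 higher at that p on the deposited values. With brightness as a covariate 534 stood lower.

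Lists of matrix, growth factor and vessel genes lay above 0, mostly without genes past the adjusted threshold. Of 23 genes of elastic fibres and latent TGF-beta binding, the structures affected in Marfan syndrome, 17 lay above 0 (median 0.18) and 8 (34.8%, against 6.65% of all genes) stood higher at an unadjusted p under 0.05. They included Ltbp4 and Ltbp1, which bind latent TGF-beta (0.49 ± 0.13 and 0.36 ± 0.11), Mfap4 of the microfibrils (0.39 ± 0.11), and Loxl1 and Lox, which cross-link elastin and collagen (0.30 ± 0.10 and 0.32 ± 0.13). Ltbp4 stood at 7.67 to 8.80 against 8.69 to 9.20 in wild-type and 8.00 to 8.92 against 8.48 to 9.09 in Marfan lungs, so that the groups overlapped in both. Among 27 TGF-beta pathway genes, 10 stood higher at an unadjusted p under 0.05 and none lower. The ligand gene Tgfb2 came nearest to the threshold at 0.47 ± 0.11 (adjusted p = 0.0573), followed by Thbs1, which activates latent TGF-beta (0.77 ± 0.20), Tgfb1 (0.24 ± 0.07) and the receptor gene Tgfbr2 (0.17 ± 0.06). Of 39 collagens and other matrix genes 30 lay above 0 (median 0.11) and 9 stood higher at an unadjusted p under 0.05, among them the proteoglycan gene Bgn (0.31 ± 0.08) and Sparc (0.28 ± 0.09). That count of 9 was 4 without Marfan sildenafil array 8 and 5 without wild-type sildenafil array 6, and the median was 0.17 without Marfan vehicle array 20. Of 31 proteases and inhibitors 6 stood higher, with Timp2 past the adjusted threshold and Timp3 (0.35 ± 0.09), Mmp19 (0.39 ± 0.12) and Mmp14 (0.36 ± 0.12) next. The median of the elastic fibre list was 0.25 in wild-type and 0.09 in Marfan lungs, and that of the TGF-beta list 0.12 and 0.05. For collagens and matrix the medians were 0.135 and 0.09, and for proteases and inhibitors 0.05 and 0.19. Differences between the genotypes were not tested for the lists. The counts of these lists depended on scaling. On the deposited values 16 elastic fibre, 19 TGF-beta, 25 collagen and matrix and 13 protease and inhibitor genes stood higher at an unadjusted p under 0.05, and after median centring 7, 4, 3 and 4. With array brightness as a covariate the counts were 3, 5, 4 and 2. Of all 19494 genes, 5420, 660 and 539 stood higher at that p in these settings, in the same order.

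Of 25 endothelial genes 21 lay above 0 (median 0.13), and at an unadjusted p under 0.05 8 stood higher (32%, against 6.65% of all genes) and 2 lower (8%, against 6.42%). Cdh5, the cadherin of endothelial junctions, stood at 0.30 ± 0.08 and the apelin receptor gene Aplnr at 0.31 ± 0.08, while Gpihbp1 and Car4, both of capillary endothelium, stood at -0.21 ± 0.06 and -0.20 ± 0.07. The endothelial median was 0.16 in wild-type and 0.05 in Marfan lungs, and 0.02 on average with array 9 included. Of 14 genes of VEGF and angiopoietin signalling 3 (21.4%) stood higher (Kdr, Tie1 and Vegfd, at 0.23, 0.20 and 0.19) and 1 (7.14%) lower (Angptl4, -0.30 ± 0.12). Their median of 0.10 became 0.05 without Marfan vehicle array 21 and -0.01 with array 9 included. The fall of Angptl4 was seen in wild-type lungs, from 7.69 to 8.11 (median 7.86) against 6.89 to 7.51 (median 7.34). In Marfan lungs it ran from 7.20 to 8.13 (median 7.43) against 7.36 to 7.96 (median 7.63). Of 18 contractile smooth muscle genes 17 lay above 0 (median 0.19) and 5 (27.8%) stood higher at an unadjusted p under 0.05, a count of 2 without wild-type sildenafil array 6 and of 8 without wild-type vehicle array 15 or Marfan vehicle array 20. They were Synpo2 (0.29 ± 0.10), Des (0.32 ± 0.13), Hhip (0.31 ± 0.12), Smtn (0.20 ± 0.09) and Acta2, smooth muscle actin (0.21 ± 0.09). On the deposited values 17 endothelial, 10 VEGF and angiopoietin and 15 smooth muscle genes stood higher at an unadjusted p under 0.05. After median centring 2, 0 and 3 did, and with array 9 included 2, 0 and 0. The counts over all 19494 genes were 5420, 660 and 1006 in these settings. The smooth muscle markers ran from 8.17 to 8.87 against 8.49 to 8.92 in wild-type and from 8.26 to 8.96 against 8.67 to 9.18 in Marfan lungs.

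Cardiac muscle, which lines pulmonary veins in mice and can adhere to dissected lungs, was read beside smooth muscle. Its 4 markers ran from 7.65 to 8.28 against 7.92 to 8.11 in wild-type lungs and from 7.64 to 8.05 against 8.01 to 8.63 in Marfan lungs, an averaged difference of 0.19 made up of -0.01 in wild-type and 0.40 in Marfan lungs. Of 18 cardiac and skeletal muscle genes 6 lay above 0 in wild-type lungs (median -0.06) and 18 in Marfan lungs (median 0.26), a difference that was not tested for the list. On average 12 lay above 0 (median 0.14, and -0.05 with array 9 included). Of the 18, 1 (5.56%, against 6.65% of all genes), Actc1 (0.31 ± 0.10), stood higher at an unadjusted p under 0.05. That count was 4 without wild-type vehicle array 18 and 3 without wild-type vehicle array 13 or 17, Marfan sildenafil array 10 or Marfan vehicle array 20 or 22. It was 2 without wild-type sildenafil array 1, Marfan sildenafil array 12 or Marfan vehicle array 23. The median was 0.07 without wild-type sildenafil array 6 or Marfan sildenafil array 11, and 0.09 without Marfan vehicle array 21, 22 or 24. The part of such muscle in the other results was not tested. Of 28 Wnt pathway genes 25 lay above 0 (median 0.15) and 6 (21.4%, against 6.65% of all genes) stood higher at an unadjusted p under 0.05. They were led by the receptor genes Fzd4 (0.25 ± 0.07) and Fzd1 (0.30 ± 0.10) and the secreted Dkk3 (0.40 ± 0.12) and Sfrp1 (0.37 ± 0.12). The Wnt count was 20 on the deposited values, 4 after median centring and 1 with array brightness as a covariate. Of all 19494 genes, 5420, 660 and 539 stood higher at that p in these settings.

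**Figure D3:**
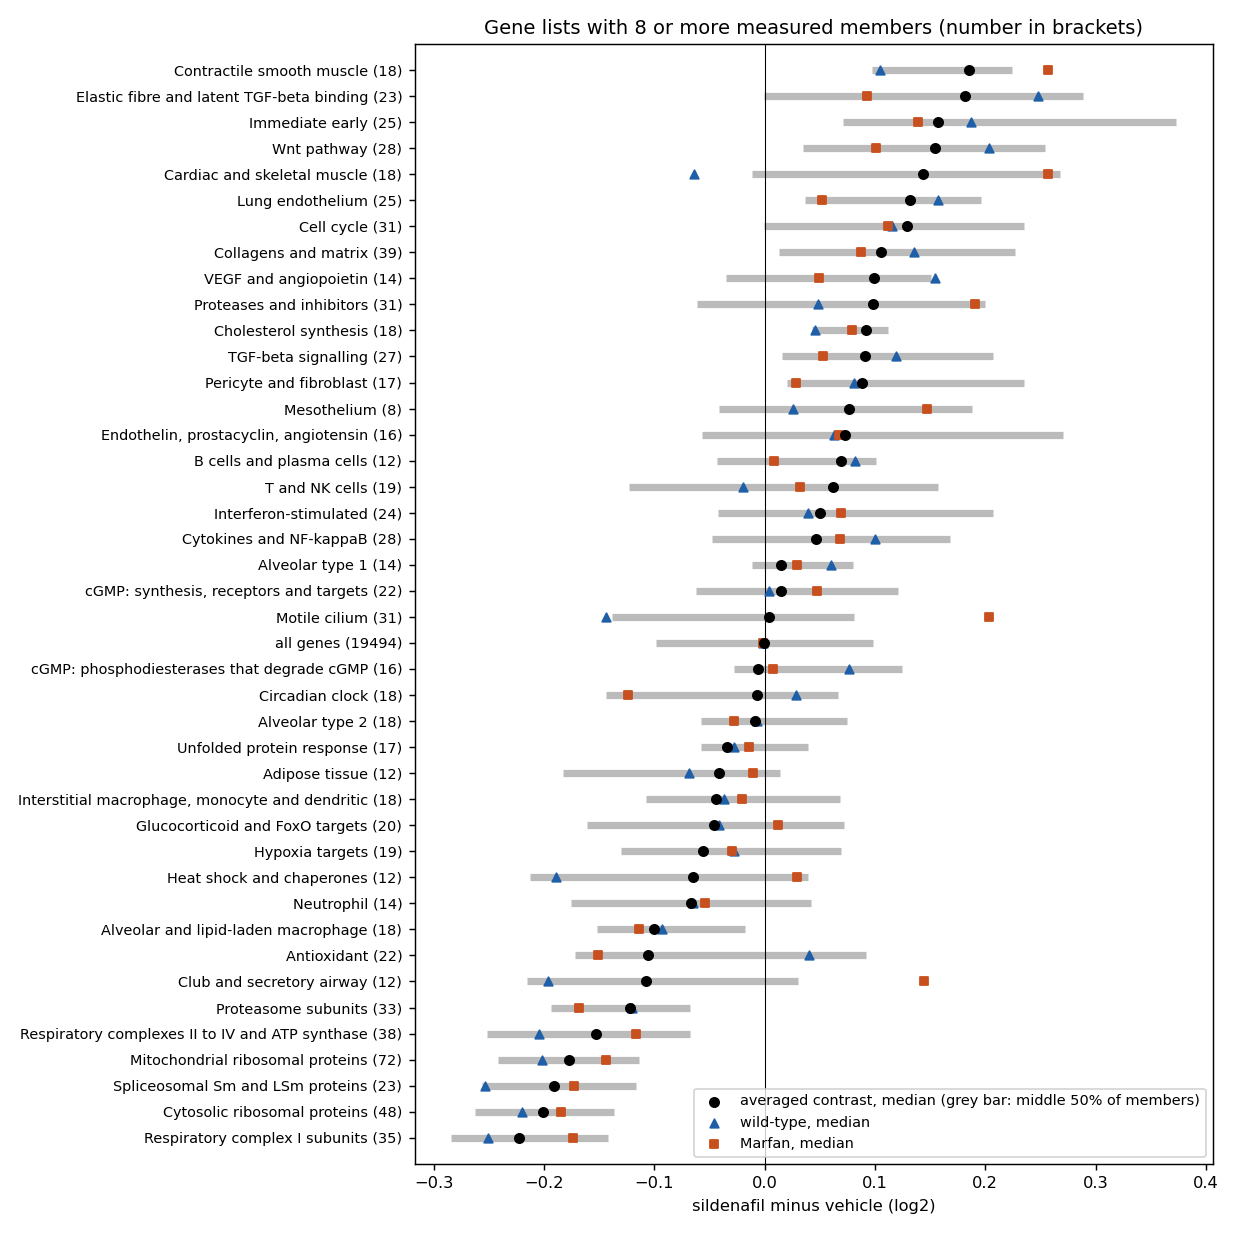
Median difference under sildenafil (log2) of each gene list with 8 or more measured members (number in brackets), averaged (black circles, grey bars for the middle 50% of members), in wild-type lungs (blue triangles) and in Marfan lungs (orange squares). The 6 lists of respiratory, ribosomal, proteasome and splicing genes lie lowest with medians from -0.22 to -0.12, and smooth muscle (0.19) and elastic fibre genes (0.18) lie highest.

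Immediate early genes, whose transcripts appear quickly after a cell is stimulated, held the largest difference of all genes tested, that of Fos. Some of them carry cyclic AMP response elements, to which the factor CREB binds and which can be driven by cyclic AMP or cyclic GMP. Such a route was not tested here. The promoters of Fos and Dusp1 are shown because these members stood high and hold, in Fos the core of that element, and in Dusp1 the core and the whole element. The sequences are RefSeq's, build GRCm38.p6, read 5′ to 3′ on the gene's strand and ending at the base before the start site. Capitals mark TGACGT, the core of the element, TGACGTCA, the whole element, and TATAAA, the TATA box.
Fos, chr12:85473790-85473889, plus strand: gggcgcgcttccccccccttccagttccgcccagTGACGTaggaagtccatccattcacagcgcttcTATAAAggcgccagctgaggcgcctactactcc
Dusp1, chr17:26508473-26508672, minus strand: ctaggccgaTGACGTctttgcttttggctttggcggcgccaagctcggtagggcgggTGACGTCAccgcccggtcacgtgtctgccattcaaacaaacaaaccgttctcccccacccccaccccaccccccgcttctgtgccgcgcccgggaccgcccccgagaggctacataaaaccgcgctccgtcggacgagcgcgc
The core begins 66 bases before the start of Fos and 191 before that of Dusp1, whose whole element begins 143 bases before it. Of 20 immediate early genes with a promoter in the table, 6 (30%) held TGACGT on either strand within 250 bases before the start, against 8.78% of 15683 measured genes, and 2 (10%) held TGACGTCA, which contains it, against 2.27%. The other holders of TGACGT were Atf3, Btg2, Egr2 and Nr4a3, which did not stand higher at an unadjusted p under 0.05. Of the members that did, named below, only Fos and Dusp1 held it, among those with a promoter in the table. A match to these letters is a description and not a shown binding site.

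Fos, a subunit of the transcription factor AP-1, stood at 6.41 to 7.66 (median 7.33) on the wild-type vehicle arrays and at 7.13, 8.15, 8.46 and 8.65 on the sildenafil arrays. In Marfan lungs it stood at 5.98, 6.18, 6.39, 6.62 and 7.82 under vehicle and at 6.38, 7.11, 8.43 and 8.79 under sildenafil. Both pairs of groups overlapped, and treated lungs differed from each other by over 1 log2 unit. The difference was 1.01 ± 0.27 (adjusted p = 0.0814), and Egr1, another transcription factor gene, stood at 0.93 ± 0.25 (adjusted p = 0.0859). Dusp1, a phosphatase that turns off MAP kinases, stood at 0.37 ± 0.11 (adjusted p = 0.111), with 11.28 to 11.77 against 11.30 to 12.16 in wild-type and 10.87 to 11.57 against 11.33 to 12.18 in Marfan lungs. Of the 25 measured members 20 lay above 0 (median 0.16) and 8 (32%, against 6.65% of all genes) stood higher at an unadjusted p under 0.05, the others being Zfp36, the dim Egr3, Nr4a1, the dim Fosb and Fosl2. That count was 5 and the median 0.10 without Marfan sildenafil array 12. It was 20 on the deposited values, 6 after median centring and 3 with array brightness as a covariate. Over all 19494 genes that count was 5420, 660 and 539 in these settings.

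None of the 18 measured clock genes had an unadjusted p under 0.05 (Dbp, Per1 and Arntl among them), and their median was -0.01. Of 22 antioxidant genes Sod3 passed, Cat (0.18 ± 0.06) stood higher at an unadjusted p under 0.05 and 6 stood lower, led by Gpx4 (-0.24 ± 0.07) and Prdx1 (-0.18 ± 0.06), whose products remove peroxides. Those 6 are 27.3% of the list, against 6.42% of all genes, and the list's median was -0.11 (0.04 in wild-type and -0.15 in Marfan lungs). On the deposited values that median was 0.14, or -0.05 relative to the median gene, with none lower at an unadjusted p under 0.05 (37 of all 19494 genes were). It was -0.06 without wild-type vehicle array 16, wild-type sildenafil array 4 or 6 or Marfan vehicle array 21. Of 31 cell cycle genes 3 stood higher (Mki67 at 0.49 ± 0.15 and the dim Tpx2 and Kif11) and 1 lower (Mcm6, -0.25 ± 0.08). These are 9.68% and 3.23% of the list, against 6.65% and 6.42% of all genes. The higher count was 1 without Marfan sildenafil array 8 and 5 without wild-type sildenafil array 1 or 4 or Marfan sildenafil array 12. Of 18 alveolar type 2 genes 2 (11.1%) stood higher and 2 (11.1%) lower, with the surfactant protein gene Sftpd at -0.27 ± 0.07 and the phosphate transporter gene Slc34a2 at 0.18 ± 0.07. Of 14 alveolar type 1 genes 1 (7.14%, near the share of all genes) stood higher (Gprc5a, 0.18 ± 0.06), and of 12 club cell genes none had an unadjusted p under 0.05. Cilium genes had a median near 0 on average but of -0.14 in wild-type and 0.20 in Marfan lungs, a difference that was not tested.

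No gene of the immune lists passed the adjusted threshold. Of 28 cytokine and NF-kappaB genes 5 (17.9%, against 6.65% of all genes) stood higher and 3 (10.7%, against 6.42%) lower at an unadjusted p under 0.05, with the dim Il6 at 0.49 ± 0.14 and the NF-kappaB inhibitor gene Nfkbia, Il18 and Ccl17 at -0.28 ± 0.07, -0.29 ± 0.08 and -0.73 ± 0.24. The higher count was 3 without wild-type vehicle array 13 or 15, wild-type sildenafil array 1 or 6, Marfan sildenafil array 11 or Marfan vehicle array 23, and 2 without Marfan sildenafil array 12 or wild-type vehicle array 18. Ccl17 spread widely in Marfan vehicle lungs, from 7.51 to 10.38 (median 7.96), against 7.26 to 7.91 (median 7.40) under sildenafil. In wild-type lungs it ran from 7.56 to 8.60 (median 8.25) against 7.21 to 8.12 (median 7.49). Of 24 interferon-stimulated genes 6 (25%) stood higher, led by the guanylate-binding protein gene Gbp2 (0.34 ± 0.10), and 1 (4.17%) lower, the dim Isg15 (-0.33 ± 0.12). This count of 6 was 3 without wild-type sildenafil array 4, 5 or 6, Marfan sildenafil array 8 or 11 or Marfan vehicle array 22. None of 14 neutrophil genes had an unadjusted p under 0.05. Of 18 alveolar macrophage genes 2 (11.1%, against 6.42% of all genes) stood lower (Ccl6, at -0.29 ± 0.12, and Car4, which the endothelial list also holds). Blood cells in the lung vessels were read as well. On average all 7 platelet genes lay above 0, as did 7 in wild-type and 4 in Marfan lungs, where the medians were 0.63 and 0.03. At an unadjusted p under 0.05, 1 member (14.3%, against 6.65% of all genes) stood higher (Ppbp, 0.61 ± 0.26). That count was 6 without Marfan vehicle array 22 and 3 without wild-type sildenafil array 5. It was 2 without wild-type vehicle array 15, 17 or 18, wild-type sildenafil array 1 or Marfan sildenafil array 8 or 10. On the deposited values it was 7, where 5420 of all 19494 genes stood higher at that p. The averaged median of 0.30 was 0.47 without Marfan vehicle array 22 or Marfan sildenafil array 8. The count was 0 without wild-type sildenafil array 4 or 6, Marfan sildenafil array 11 or 12 or Marfan vehicle array 21. The 2 erythrocyte markers differed by -0.28, from 7.54 to 9.00 against 7.94 to 9.23 in wild-type and from 7.40 to 8.68 against 7.24 to 7.94 in Marfan lungs. The part of blood content in the other results was not tested.

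Array brightness and gene length moved with the direction of change. With the brightness of each array as a covariate 0 genes passed (lowest adjusted p = 0.253) and 1073 had an unadjusted p under 0.05. All 74 genes kept their direction there, 72 with an unadjusted p under 0.05, and their differences were 0.673 times the main ones in the median. The 46 genes that rose span a median of 46.7 kb of the genome from start to end, the 28 that fell 5.44 kb and all genes 17.8 kb (RefSeq, GRCm38.p6). In the brighter 50% of genes, ordered by span in 5 equal groups, the median difference was -0.07 at a median span of 4.73 kb, -0.02 at 13.1 kb, 0.004 at 25.4 kb, 0.03 at 48.8 kb and 0.05 at 124 kb. Across those 9747 genes, which are not independent, the difference correlated with log10 span at r = 0.282, and at 0.246 in wild-type and 0.23 in Marfan lungs. The part of brightness and of span in the named genes was not tested beyond these values.

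**Figure D4:**
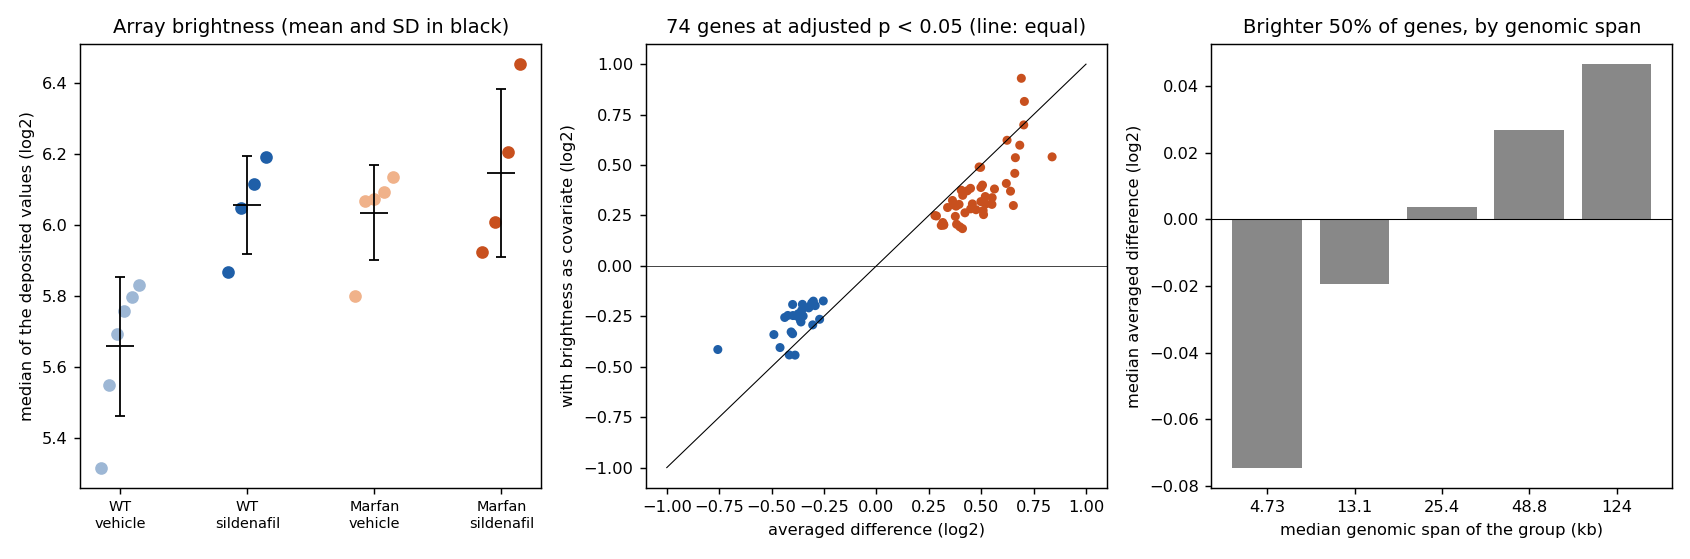
Left, the median deposited level (log2) of each array, with the mean and SD of its group in black. Middle, the averaged difference (log2) of the 74 genes without (horizontal) and with (vertical) array brightness as a covariate, with the line of equal values. Right, bars for the median averaged difference (log2) in the brighter 50% of genes in 5 groups by genomic span (median span in kb under each bar), rising from -0.07 to 0.05. The wild-type vehicle group has the lowest mean, and all 74 genes keep their sign.

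The threshold falls within a run of like values. Just inside it lay Myadm (0.32, adjusted p = 0.0474) and Cox4i1 (-0.36, adjusted p = 0.0486), and just outside it Mien1 (-0.34, adjusted p = 0.0503), Dag1, which encodes dystroglycan (0.37, adjusted p = 0.0505), and Vim.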

How the data were processed

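Total RNA of whole mouse lung with an integrity number above 8.5 was amplified from 700 pg and hybridised to Affymetrix arrays, per the labels' protocols. The authors deposited log2 values made with Affymetrix Expression Console and RMA, per the submitters' processing notes. Their versions: not given in the sources used here. Because deposited array medians differed, the transcript probe sets (IDs starting TC) of the 19 arrays used were quantile-normalized, and 1 probe set per gene was kept (19527 of 22142 have 1 gene symbol). The 4 columns of arrays that failed quality control held no values. The 4 groups were fitted together in R 4.3.3 with limma 3.58.1 (lmFit, eBayes with a variance trend, 15 residual degrees of freedom, two-sided), and the code was tested on simulated data. Precision is set by the number of arrays, and the median SE of the averaged difference was 0.119. Up to 15 genes per direction with an adjusted p under 0.05, up to 4 genes per list by smallest p, up to 5 per direction whose arrays do not overlap, Pde5a and the clock genes were to be named. The rule skipped predicted genes, smell receptors, small RNAs and segments of antigen receptors. Names outside it were picked with values in view. The contrast, the members of the 44 lists and the rules were chosen with earlier results of these data known, so the lists are described by counts and medians only. Alternatives covered normalization, array 9, covariates for brightness and Y-linked expression, an additive model, array weights, the variance trend, a filter on dim genes, the choice of probe set and each array left out. Fbn1 and Xist are not analysed here.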

Additional observations from a re-analysis of the deposited data

Results flagged for a closer look

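In 132 checks of 32 genes and of array brightness, each group tested for 1 array far from the others, 5 values stood apart, and chance alone gives about 1 in 20. Wild-type vehicle array 17 had the lowest Siva1 level of its group, 7.84 against 8.07 to 8.18 on the others. Wild-type vehicle array 18 had the highest Nop10 level, 11.06 against 10.69 to 10.80, and the lowest Sod3 level, 9.96 against 10.58 to 10.89. Wild-type sildenafil array 6 had the highest Chrdl1 level, 8.28 against 7.70 to 7.79. Marfan vehicle array 20 was the dimmest of its group before normalization, with a median of 5.80 against 6.07 to 6.14.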

How the results depend on the processing

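Deposited values gave 792 genes higher and 1 lower at an adjusted p under 0.05 (5420 and 37 unadjusted) and Pde5a at 0.507. Median centring gave 3 and 0 (660 and 2201). Including array 9 gave 0 and 0 (1006 and 1120, lowest adjusted p = 0.093), brightness as a covariate 0 and 0 (539 and 534), and limma without a variance trend 0 and 0 (1175 and 1190, lowest adjusted p = 0.115). The additive model gave 67 and 43, array weights 101 and 65 with Pde5a at 0.313, and the brighter 50% of genes 95 and 88. The Y-linked covariate gave 53 and 33, and the mean of a gene's probe sets 46 and 28. Leaving out 1 array gave 0 to 124 genes higher and 0 to 109 lower (1068 to 1384 and 1009 to 1344 unadjusted) and Pde5a from 0.276 to 0.379. The interaction gave 0 genes in every fit that had one. The cause of these shifts was not tested. All 74 genes tested kept their sign under each alternative, of which the brighter 50% held 68. No paired analysis was possible because the groups share no replicate numbers.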
